A study of Mus musculus with 7 samples.

Results

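Epcam, Cd24a, Tspan8, Prom1, Spp1, Lad1, Elf3 and Spint1 are transcripts that the liver makes mainly in bile duct epithelium and in immature, progenitor-like epithelium, and they were followed here in livers without the microRNA miR-122. Every probe set whose platform symbol was exactly one of these 8 genes was read on its own. That gave 14 probe sets for 7 genes, of 18193 genes with a probe set of a single symbol, and no probe set carried the symbol Spp1, the gene of osteopontin, so it is not analysed here. The genes were selected on the knockout minus wild-type differences of these same arrays, so the levels and differences of the 7 genes are given as a description, with no p-value. Counts of their calls are set beside the share of all probe sets called, and nothing is read from them. Where a gene had several probe sets, the one with the highest average level over all arrays is called its leading probe set.

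The livers came from 4 miR-122 knockout mice (KO-03, KO-90, KO-91, KO-94) and 3 wild-type mice (WT-27, WT-103, WT-104), and per-animal values below follow that order. All 7 mice had a B6/129 background and were 2 months old, and each liver was hybridised to its own Affymetrix array. The sources used here do not say how the knockout allele was made or which sex the animals were. The values are log2 expression per probe set, so a difference of 1 is a doubling, and levels of different probe sets cannot be set against each other.

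In a healthy liver, cholangiocytes line the bile ducts while hepatocytes make up most of the tissue. After injury, small duct-like cells can spread into the lobule, a change called the ductular reaction, and cells there carry surface proteins of fetal liver epithelium. Epcam, Cd24 and Prom1 (CD133) are among the proteins used to sort such cells. Hepatocytes make more of miR-122 than of other microRNAs. In whole liver, a larger number of duct-like cells and more transcript per cell cannot be told apart.

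The liver label was checked against its markers. The 12 hepatocyte genes had mean log2 levels of 13.59 to 13.65 in knockout livers and 13.47 to 13.54 in wild-type livers, and in the fit with limma, a linear model with a shared estimate of the spread, 0 of the 12 passed an adjusted p of 0.05. At an unadjusted p under 0.05, 2 were higher, Tat at 0.90 ± 0.21 (SE) and Ahsg at 0.28 ± 0.10 (SE). Over all 45037 probe sets, 5997 had such a p, in either direction. Albumin, Alb, differed by 0.04 ± 0.09 (SE). Array medians lay between 4.65 and 4.72. Correlations across probe sets were 0.976 to 0.991 within knockout, 0.985 to 0.990 within wild type and 0.965 to 0.988 between genotypes. The deleted microRNA itself was not read, so the genotype labels have no such check. Each array was given a floor for levels, between 4.71 and 5.23, equal to its brightest signal among 27 Bacillus subtilis controls. Where a wild-type array lay at or under it, "at least" marks the difference computed with those arrays raised to the floor.

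Among the surface proteins, Epcam, an epithelial cell adhesion molecule, was read by probe set 1416579_a_at at 6.06 in KO-03, 7.44 in KO-90, 7.47 in KO-91 and 6.99 in KO-94. Its wild-type values were 4.80 in WT-27, 4.59 in WT-103 and 5.05 in WT-104. All 4 knockout livers lay above all 3 wild-type livers, of which 2 were at or under the floor. The means were 6.99 ± 0.66 (SD, n = 4) in knockout and 4.81 ± 0.23 (SD, n = 3) in wild type, a difference of at least 2.06 on the log2 scale, or at least 4.17-fold.

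Cd24a codes for a small, heavily glycosylated protein that is anchored to the membrane by lipid. Its probe set 1448182_a_at stood at 7.18, 8.06, 8.30 and 8.05 in the 4 knockout livers, against 4.39, 5.30 and 5.48 in the 3 wild-type livers. The genotypes did not overlap, and the lowest knockout liver was 1.70 above the highest wild-type liver, the widest such gap among the 7 leading probe sets. The means differed by at least 2.73, or at least 6.65-fold, with 1 wild-type array under the floor. A second probe set, 1416034_at, gave nearly the same picture, at 6.88 to 7.62 in knockout livers and 4.40 to 5.10 in wild-type livers, a difference of at least 2.40.

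Tspan8 is a tetraspanin, a membrane protein that gathers adhesion receptors into clusters. Probe set 1424649_a_at read 5.30, 6.94, 7.23 and 6.93 in the 4 knockout livers and 3.39, 3.11 and 3.70 in the 3 wild-type livers. Every wild-type array was under the floor, while every knockout array was above it. The means were 6.60 ± 0.88 (SD, n = 4) in knockout and 3.40 ± 0.30 (SD, n = 3) in wild type. The measured difference of 3.20 ± 0.42 (SE) was larger than in the other 6 leading probe sets, but against the floor it shrank to at least 1.70, or at least 3.24-fold.

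Prom1 codes for prominin-1, which sits in membrane protrusions of epithelial cells. Its single probe set read 5.44 in KO-03, 7.32 in KO-90, 6.22 in KO-91 and 6.80 in KO-94. In wild type it read 3.78 in WT-27, 3.91 in WT-103 and 4.19 in WT-104, all under the floor. The genotypes did not overlap, and the knockout livers were spread over 1.88 on the log2 scale. Their mean of 6.44 ± 0.81 (SD, n = 4) stood at least 1.54 above the wild-type mean of 3.96 ± 0.21 (SD, n = 3), or at least 2.91-fold.

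Inside the cell, Lad1 codes for ladinin-1, a protein linked to the keratin cytoskeleton and to the anchoring of epithelium. Together with Elf3, it was above the floor on all 7 arrays. Lad1 read 8.88, 9.77, 9.49 and 9.39 in the 4 knockout livers, against 6.80, 6.86 and 7.36 in the 3 wild-type livers. The knockout livers all lay above the wild-type livers, by 1.52 at the closest. The difference of 2.37 ± 0.22 (SE), or 5.18-fold, therefore needs no bound.

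Elf3 is an epithelium-specific transcription factor of the ETS family. It read 6.50 in KO-03, 7.33 in KO-90, 6.50 in KO-91 and 7.42 in KO-94, against 5.53 in WT-27, 5.64 in WT-103 and 5.65 in WT-104. Wild-type livers were nearly alike, at 5.61 ± 0.06 (SD, n = 3), while the knockout livers, at 6.94 ± 0.51 (SD, n = 4), formed a lower and a higher pair, both above wild type. The difference was 1.33 ± 0.25 (SE), or 2.52-fold, with all 7 arrays above the floor.

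Spint1, also known as HAI-1, is a membrane-bound inhibitor of serine proteases such as matriptase and the activator of hepatocyte growth factor. Its probe set read 5.26, 5.66, 5.48 and 5.50 in the 4 knockout livers and 4.87, 4.43 and 4.44 in the 3 wild-type livers. The genotypes did not overlap, but the closest livers were only 0.39 apart. With 2 wild-type arrays under the floor, the difference was at least 0.52, or at least 1.43-fold, the smallest among the 7 leading probe sets.

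**Figure D1:**
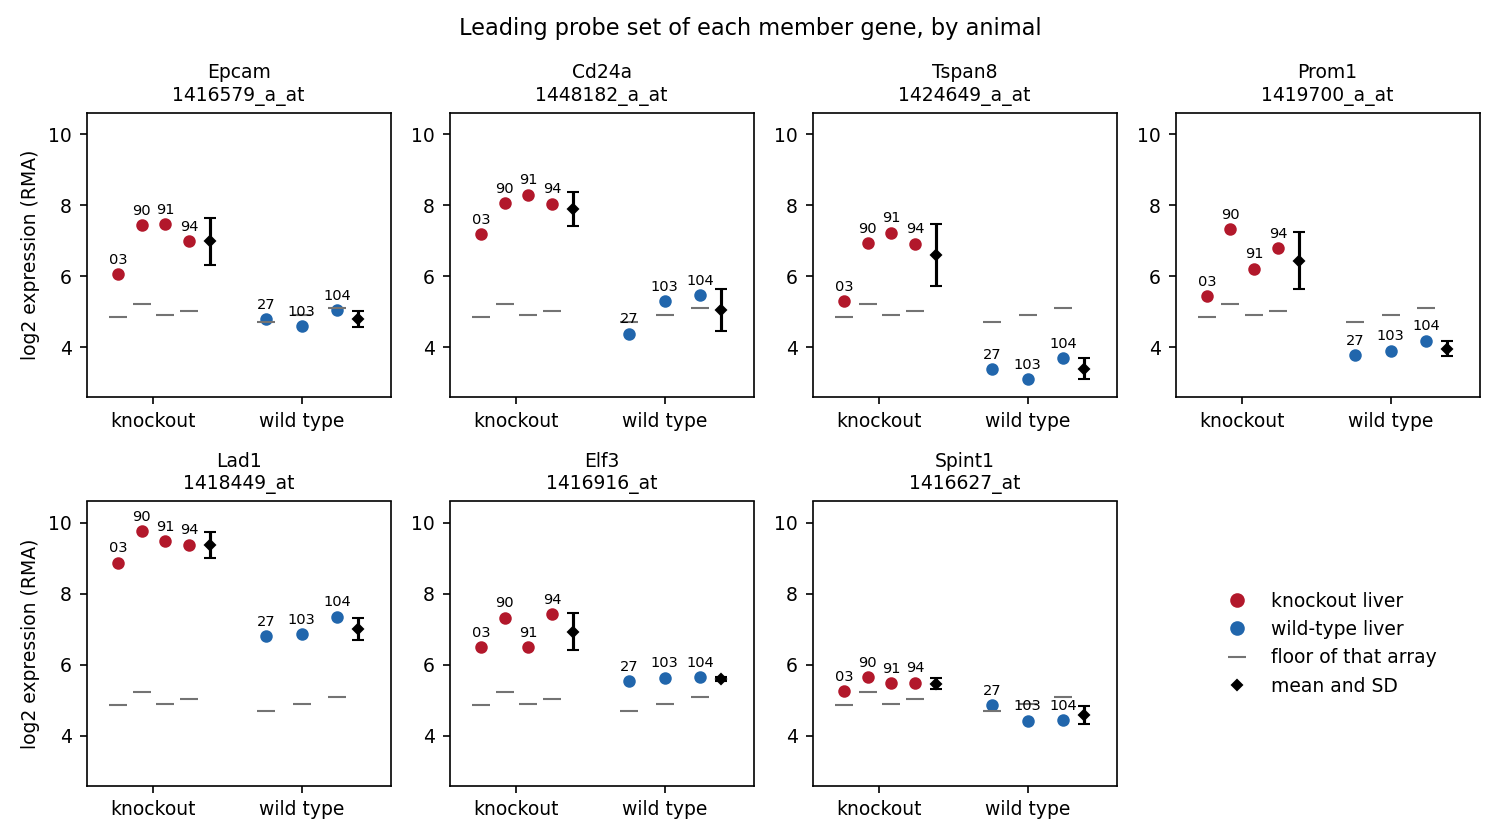
Log2 expression (vertical axis) of the leading probe set of each of the 7 measured genes in the 4 knockout livers (red, left) and the 3 wild-type livers (blue, right), labelled by animal number. Grey dashes are each array's floor, and black diamonds with bars are the mean and SD. In all 7 panels every knockout liver lies above every wild-type liver, and in the Tspan8 and Prom1 panels all wild-type livers lie under the floor.

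The bases just before the transcription start are shown for the transcription factor Elf3 and for the 4 genes with the largest differences that had an entry, Tspan8, Prom1, Lad1 and Epcam, since these are the transcripts that stood higher together. Each run is the 250 bases before the start, from RefSeq on build GRCm38.p6, read 5′ to 3′ on the gene's strand. Capitals mark matches, on either strand, to 6 motif strings: TGANTCA (AP-1), CCGGAAG (ETS), GGAATG (TEAD), GTTAAT (HNF1), AACCNG (grainyhead-like) and GGGCGG (SP/KLF). Motifs that touch run together in capitals, as AACCNG and GGGCGG do for Prom1.
Tspan8, chr10:115817034-115817283, + strand: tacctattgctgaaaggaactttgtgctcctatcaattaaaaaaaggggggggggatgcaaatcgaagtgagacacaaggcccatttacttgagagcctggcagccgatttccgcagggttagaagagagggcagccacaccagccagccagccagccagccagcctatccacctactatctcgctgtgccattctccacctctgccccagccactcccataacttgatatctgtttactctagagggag
Prom1, chr5:44101737-44101986, - strand: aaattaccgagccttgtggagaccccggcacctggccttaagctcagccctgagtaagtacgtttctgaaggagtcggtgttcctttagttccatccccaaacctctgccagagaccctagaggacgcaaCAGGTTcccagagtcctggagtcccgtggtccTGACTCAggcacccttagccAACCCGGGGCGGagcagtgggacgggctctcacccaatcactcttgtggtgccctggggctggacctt
Lad1, chr1:135818348-135818597, + strand: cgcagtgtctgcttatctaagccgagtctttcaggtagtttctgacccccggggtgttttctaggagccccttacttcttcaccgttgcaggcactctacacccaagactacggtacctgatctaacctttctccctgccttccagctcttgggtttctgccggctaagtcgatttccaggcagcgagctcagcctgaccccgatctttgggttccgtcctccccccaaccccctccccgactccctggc
Epcam, chr17:87635729-87635978, + strand: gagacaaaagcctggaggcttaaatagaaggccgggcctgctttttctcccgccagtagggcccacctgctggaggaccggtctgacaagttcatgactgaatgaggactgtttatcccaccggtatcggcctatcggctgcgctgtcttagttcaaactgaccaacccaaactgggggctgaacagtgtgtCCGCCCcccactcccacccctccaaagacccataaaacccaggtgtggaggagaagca
Elf3, chr1:135258473-135258722, - strand: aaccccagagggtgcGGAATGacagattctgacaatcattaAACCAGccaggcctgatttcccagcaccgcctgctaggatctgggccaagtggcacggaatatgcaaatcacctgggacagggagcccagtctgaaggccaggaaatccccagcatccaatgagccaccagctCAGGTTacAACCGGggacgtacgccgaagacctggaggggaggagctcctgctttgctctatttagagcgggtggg

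Of the 8 genes named, 7 had a window (Cd24a had none), with 9 windows in all, since Prom1 and Spp1 each had a second start. The string TGANTCA, labelled AP-1, lay in both Prom1 windows and in no other, against 6.75% of all 32851 windows. It read TGACTCA in the Prom1 window shown and TGAATCA in the second. The TEAD string lay only in the Elf3 window (12.6% of all windows). ETS and HNF1 strings lay in the windows of Spint1 and Spp1 (6.91% and 6.43% of all windows). The grainyhead-like string was found in 5 of the 9 windows (33.9% of all windows) and the SP/KLF string in 3 of them, those of Epcam, Prom1 and Spint1 (32.7% of all windows). The Tspan8 and Lad1 windows held none of the 6 strings, so no string was common to the genes shown. Elf3 and Lad1 are near neighbours on chromosome 1, with 9 protein-coding genes between them in the RefSeq table. All 9 were measured and 0 were called by limma, with differences of -0.04 to 1.05. An unadjusted p under 0.05 was found for 3 of the 9, and for 5997 of all 45037 probe sets.

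Counted over probe sets, 9 of the 14 were called higher in knockout by limma at an adjusted p under 0.05, 0 were called lower and 5 did not pass, and each of the 7 genes had at least 1 probe set called. Over all 45037 probe sets, 1.29% were called higher. The genes were selected on this contrast, which fixes such a count in advance. In 11 of the 14 probe sets the genotypes were fully separated, with knockout on top, and 7.25% of all probe sets showed that separation. The selection bears on this count too. Among the 11 were 1420018_s_at and 1420019_at of Tspan8, never above the floor, with gaps of 0.002 and 0.16. The count of 9 depended on single arrays: it was 4 without KO-91, 3 without WT-103, 5 without WT-27 and 5 without WT-104. The count of genes, 7, was 4 without KO-90, 3 without KO-91, 2 without WT-103, 4 without WT-27 and 4 without WT-104. Calls across the series depended on single arrays as well. Over all probe sets, the 582 called higher were 253 without KO-90, 219 without KO-91, 172 without WT-103, 238 without WT-27 and 293 without WT-104. They were 404 without KO-94, but 1112 without KO-03.

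Probe sets of the same gene did not all report the same difference. For Epcam, the second probe set, 1447899_x_at, read 5.87, 5.41, 5.57 and 5.76 in the 4 knockout livers and 5.66, 6.11 and 5.69 in the 3 wild-type livers. These values overlapped, with a difference of -0.17 ± 0.16 (SE), although all 7 arrays were above the floor. For Cd24a, 1437502_x_at was called higher but lay under the floor in all wild-type and 2 of 4 knockout livers, so its difference was only at least 0.19. For Tspan8, 3 of 5 probe sets, 1420018_s_at, 1420019_at and 1455709_at, never exceeded the floor, and 1420017_at overlapped between genotypes, at 5.09 to 5.53 in knockout and 4.52 to 5.24 in wild type. Identifiers that end in _x_at mark probe sets whose probes can match several transcripts. Where on the transcript each probe set lies was not used here.

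**Figure D2:**
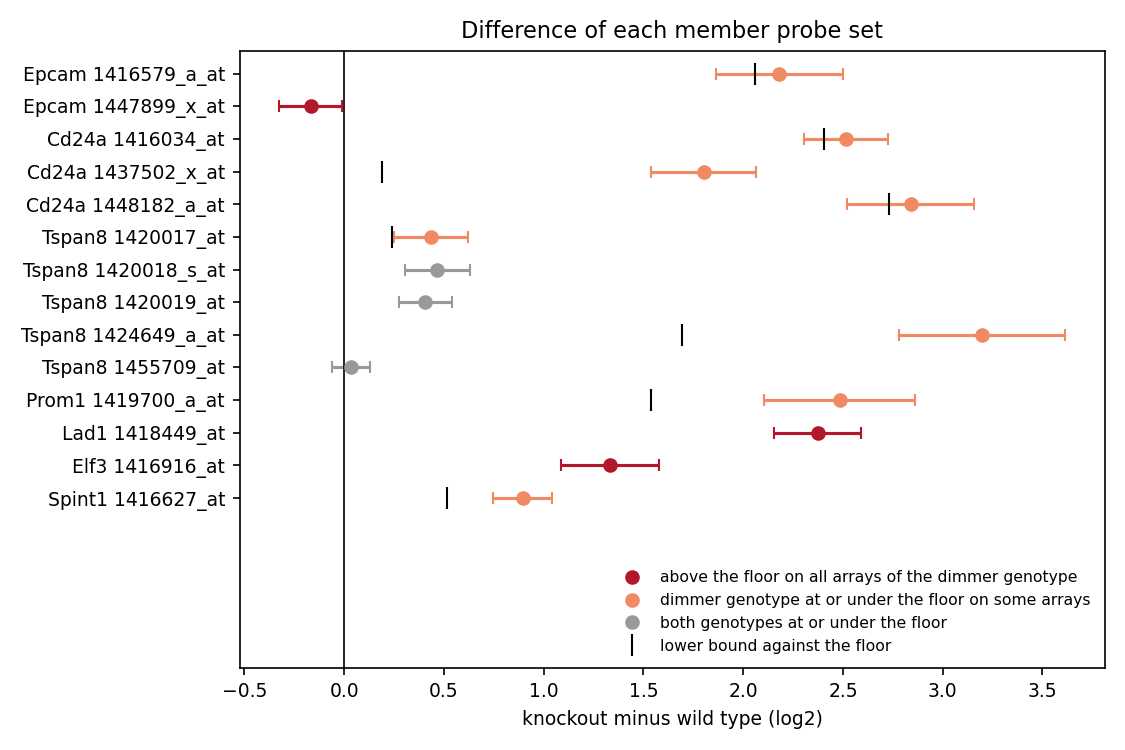
Knockout minus wild type on the log2 scale (horizontal axis) for each of the 14 probe sets, with bars of 1 standard error from the limma fit. Black ticks give the lower bound against the floor. The leading probe sets of Epcam and Tspan8 lie at 2.18 and 3.20, the second one of Epcam at -0.17, and the other 4 of Tspan8 between 0.03 and 0.47.

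The 4 knockout livers were not alike. KO-03 was the lowest knockout liver in 6 of the 7 leading probe sets, all but that of Elf3, where KO-91 was lowest and KO-03 next to it. Above the wild-type mean with arrays raised to the floor, the median of the 7 leading probe sets was at least 0.89 in KO-03, 2.42 in KO-90, 2.33 in KO-91 and 2.02 in KO-94. Against the measured wild-type mean, which includes signals under the floor, these medians were 1.48, 2.76, 2.48 and 2.38. The lag of KO-03 behind the median of the other knockouts was 1.64 for Tspan8, 1.38 for Epcam and 1.36 for Prom1, and 0.24 for Spint1. KO-90 was highest for Prom1, Lad1 and Spint1, KO-91 for Epcam, Cd24a and Tspan8, and KO-94 for Elf3. KO-03 also stood low across the series: it was the lowest knockout in 60.8% of the 582 probe sets called higher, with a median of 0.90 above the measured wild-type mean there, against 1.18 in KO-90, 1.13 in KO-91 and 1.28 in KO-94. KO-94 was the highest knockout in 47.3% of those 582 probe sets but in only 1 of the 7 leading probe sets here. Of the smaller probe sets, 1437502_x_at of Cd24a ran the other way, with KO-03 highest at 5.62 and KO-94 lowest at 4.52.

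**Figure D3:**
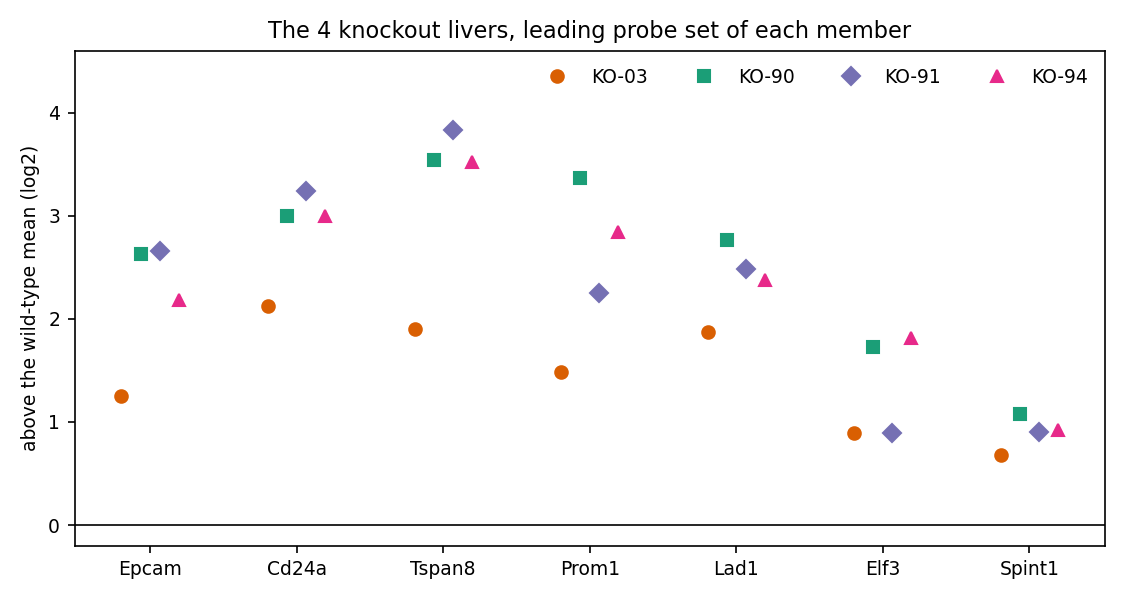
Height of each knockout liver above the measured wild-type mean, signals under the floor included, on the log2 scale (vertical axis) for the leading probe set of the 7 genes, with 1 symbol per animal. KO-03 lies lowest in 6 of 7 genes, while the highest animal changes from gene to gene.

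Across the 7 arrays, with each genotype's mean removed, Lad1 (r = 0.91), Epcam (0.90), Prom1 (0.88) and Tspan8 (0.88) followed the mean of the other leading probe sets, Cd24a (0.67) and Elf3 (0.56) less so, and Spint1 (0.39) least. These are descriptions over 7 arrays, in which all 7 probe sets come from the same livers and KO-03 is the lowest knockout in 6 of them. By the same measure, the 5 genes closest to the mean of the 7, of 12075 genes above the floor on at least 1 array, were Egln1 (r = 0.999, rho = 0.96), 2610306M01Rik (0.997, rho = 1), 0610030E20Rik (0.995, rho = 0.96), Fbxl17 (0.995, rho = 0.96) and Dtd1 (0.993, rho = 0.96). As many as 533 genes, or 4.41%, had an r over 0.9, so the order among them has little weight, and 0 of the 5 stayed in the first 5 without KO-03. Their knockout minus wild-type differences were small, from -0.37 for 0610030E20Rik to 0.30 for 2610306M01Rik.

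Among 25 other measured ductular genes, 4 rose in knockout livers, 0 fell and 21 did not pass, against 1.87% of all 18193 genes called higher and 0.511% called lower, each read through 1 probe set. The median difference of the list was 0.46, against 0.01 over all genes. At an unadjusted p under 0.05, 11 of the 25 were higher and 0 lower, against 5997 of all 45037 probe sets in either direction. This list and the others were chosen with earlier results of these data known. Their counts and p-values are therefore descriptive and give no independent support. The RNA-binding protein Bicc1, whose loss causes cysts of kidney and bile duct, rose by 2.85 ± 0.34 (SE) in its leading probe set, with values of 7.36, 8.59, 8.65 and 8.93 in the 4 knockout livers, against 5.34, 5.38 and 5.90 in the 3 wild-type livers. All its knockout values were above all its wild-type values, with a limma adjusted p of 0.00621, and its other 2 probe sets rose too, by 2.28 and at least 2.39. The membrane-binding annexin Anxa13 rose by at least 1.16 (limma adjusted p = 0.010), the sodium-glucose transporter Slc5a1 by at least 1.15 (adjusted p = 0.0148) and the duct keratin Krt19 by at least 1.10 (adjusted p = 0.0366), with KO-03 the lowest knockout liver in each. Bicc1 kept its call in all alternatives, while Krt19 lost it without any single array other than KO-03.

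Several of the classical duct genes did not pass. Cldn7, a claudin that binds Epcam at the cell surface, read 5.12, 6.97, 6.44 and 6.92 in the 4 knockout livers and 4.50, 4.30 and 4.69 in the 3 wild-type livers, all above wild type, and did not pass (limma adjusted p = 0.0640). The keratins Krt18 and Krt8, shared by duct cells and hepatocytes, differed by 1.03 ± 0.27 (SE) and 0.76 ± 0.22 (SE) without passing (limma adjusted p = 0.119 and 0.161). The duct transcription factor Sox9 differed by 0.44 ± 0.16 (SE), at 5.57 to 6.19 in knockout and 5.31 to 5.57 in wild type, and did not pass (limma adjusted p = 0.284). The keratin Krt7 and the chloride channel Cftr never exceeded the floor. Of the 25 ductular genes, 21 had a positive difference, down to 0.02 for Ezr and 0.07 for Sctr. Others leaned the other way or were flat, without passing. Onecut1 differed by -0.93 ± 0.52 (SE), Onecut2 by -0.39 ± 0.39 (SE), Slc4a2 by -0.21 ± 0.11 (SE) and Itgb4 by -0.002. The count of 4 was 2 without KO-90, KO-91, WT-27 or WT-104, 1 without WT-103 and 6 without KO-03.

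Of 16 other progenitor genes, 2 rose, 0 fell and 14 did not pass, with a median difference of 0.25. At an unadjusted p under 0.05, 8 of the 16 were higher and 0 lower. The transcription factor Sox4 rose by 3.03 ± 0.24 (SE, limma adjusted p = 0.00127), and read 7.81, 8.54, 8.84 and 8.38 in the 4 knockout livers and 5.24, 5.14 and 5.72 in the 3 wild-type livers. Its 8 probe sets disagreed: a second one rose by 0.92, and the other 6 did not pass. Of those 6, 1419156_at and 1419157_at differed by at least 0.40 and 0.72, with all knockout livers above all wild-type livers. The same order held in 1449370_at, with 3 knockout and all wild-type arrays at or under the floor. Probe set 1455867_at differed by -0.15 ± 0.13 (SE), and 1443778_at and 1458332_x_at never exceeded the floor. The fetal serum protein Afp rose by 2.28 ± 0.19 (SE, limma adjusted p = 0.00150), at 7.77, 7.79, 7.39 and 8.26 in the 4 knockout livers and 5.34, 5.66 and 5.57 in the 3 wild-type livers. In Afp, unlike in most of the duct genes, KO-03 was not the lowest knockout liver. Among other Afp probe sets, 1416645_a_at and 1436879_x_at were also called, at no less than 2.73 and 0.39. Afp probe sets 1436880_at and 1436881_x_at never exceeded the floor. Tnfrsf12a, the receptor for a cytokine that expands duct-like cells, differed by 0.82 ± 0.17 (SE) and did not pass (limma adjusted p = 0.0552). Dlk1, a surface marker of fetal hepatoblasts, did not exceed the floor in any liver. The count of 2 was 5 without KO-03.

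Of 34 measured partners and relatives of the 8 genes, 2 rose, 0 fell and 32 did not pass, with a median difference of 0.19. At an unadjusted p under 0.05, 11 of the 34 were higher and 1 lower. The tetraspanin Tspan3 rose by 1.24 ± 0.24 (SE, limma adjusted p = 0.0430) and the membrane protease Tmprss2 by 1.30 ± 0.26 (SE, limma adjusted p = 0.0491). Among other Tmprss2 probe sets, 1458347_s_at was called at 0.99 ± 0.19 (SE) and 1449369_at, at 0.63 ± 0.21 (SE), did not pass. Probe set 1459510_at of Tmprss2 never exceeded the floor. Around Spint1, its target protease matriptase, St14, differed by 0.69 ± 0.18 (SE), its relative Spint2 by 0.43 ± 0.11 (SE) and the hepatocyte growth factor activator Hgfac by -0.93 ± 0.21 (SE), and none of the 3 passed (limma adjusted p = 0.115, 0.106 and 0.0787). Prom2, the relative of Prom1, and Elf5 and Ehf, relatives of Elf3, did not exceed the floor in any liver. The tetraspanin Cd9, a partner of other tetraspanins, differed by 1.27 ± 0.29 (SE) and did not pass (limma adjusted p = 0.0781). The count of 2 was 0 without KO-90, KO-91, KO-94, WT-27 or WT-103, 1 without WT-104 and 6 without KO-03.

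Markers of other cells moved beside these genes in some lists. Of 12 stellate cell markers, genes of the matrix-producing cells, 6 rose and 0 fell, with a median difference of 0.97 and mean log2 levels of 8.18 to 8.79 in knockout livers and 7.46 to 7.63 in wild-type livers. They were led by Pdgfra at 1.41 ± 0.15 (SE, limma adjusted p = 0.00338), Lum at 1.69 ± 0.20 (SE, 0.00622), Col1a1 at no less than 2.09 (0.00901) and Pdgfrb at 1.03 ± 0.15 (SE, 0.0135). At an unadjusted p under 0.05, 9 of the 12 were higher and 0 lower. The count of 6 was 3 without KO-91, 3 without WT-27 and 2 without WT-103. Other probe sets of these genes did not pass. Those were 1421916_at of Pdgfra, at no less than 0.95, and 1417148_at of Pdgfrb, at 0.59 ± 0.19 (SE). For 1455494_at of Col1a1, 3 knockout and all wild-type arrays were at or under the floor, and 1438946_at of Pdgfra never exceeded it. Of 7 neutrophil and myeloid precursor markers, 2 rose, S100a8 by at least 3.25 and S100a9 by 3.16 ± 0.55 (SE), with limma adjusted p of 0.0269 and 0.0293. That list's mean level was 5.44 to 6.30 in knockout and 4.48 to 4.95 in wild type, with the granule genes Mpo, Elane and Camp not called. Mpo and Camp never exceeded the floor, so a change in them could not be read. Elane was near it, at 5.05 to 5.29 in knockout and 4.93 to 5.28 in wild type. The count of 2 was 1 without KO-90 or KO-91 and 0 without any single wild-type array. Of 9 intestinal markers 1, the microvillus protein Vil1, rose by at least 2.26 (limma adjusted p = 0.00924), and 8 did not pass, among them the intestinal regulator Cdx1, which was never above the floor. Vil1 lost its call without WT-103. The part that stellate cells, myeloid cells and other epithelium play in the levels of the 7 genes was not tested.

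The 9 lists of other cells and cell cycle genes not yet described had no call in the limma fit. The 10 macrophage markers had mean log2 levels of 8.76 to 9.27 in knockout and 8.34 to 8.99 in wild type. Of these 10, 3 were higher at an unadjusted p under 0.05, a level that 5997 of all 45037 probe sets reached. Marco, a scavenger receptor, and Lyz2, lysozyme, came nearest: Marco differed by 0.89 ± 0.22 (SE), and Lyz2 averaged 10.69 in knockout and 9.69 in wild type. The 8 markers of lipid-associated macrophages stood at 8.35 to 8.91 in knockout and 8.12 to 8.37 in wild type, 3 of them higher at that unadjusted level, led by Cd9 and by the lipase Lpl at 0.85 ± 0.30 (SE). The 8 endothelial markers stood at 7.49 to 7.75 in knockout and 7.56 to 7.62 in wild type, with Pecam1 at 0.46 ± 0.19 (SE) and Lyve1 at -0.66 ± 0.25 (SE) past the unadjusted level.

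Cd24a is also made by blood cells, red cell precursors and B cells among them, so markers of blood cells were read as well. The neutrophil and myeloid precursor list, with 2 genes called higher, is given above, and its part in the Cd24a level was not tested. The 6 erythroid markers stood at 5.73 to 5.84 in knockout and 5.62 to 5.99 in wild type, with a median difference of -0.10, and the 2 with the smallest p, Epb42 and Hemgn, were never above the floor. The 5 B cell markers stood at 4.70 to 5.13 in knockout and 4.63 to 4.85 in wild type, with Cd79b at 0.53 ± 0.37 (SE) and Cd79a never above the floor. The 6 T and NK cell markers stood at 4.89 to 5.02 in knockout and 4.78 to 5.09 in wild type, with Cd4 at -0.15 ± 0.13 (SE) and Cd3g never above the floor. In these 3 lists 0 genes had an unadjusted p under 0.05.

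Of 6 pancreatic acinar markers, 5 were never above the floor, Cel among them, and the elastase Cela1 differed by -0.63 ± 0.24 (SE). Cela1 and Cel were the 2 genes of that list that were lower at an unadjusted p under 0.05, and its mean level was 4.97 to 5.16 in knockout and 5.18 to 5.45 in wild type. The 7 gallbladder and mucinous markers stood at 5.75 to 6.10 in knockout and 5.90 to 5.95 in wild type, 2 higher and 1 lower at the unadjusted level. Pigr, the transporter of IgA into bile, differed by -0.80 ± 0.26 (SE), and Gkn3 by at least 0.40. The 7 cell cycle genes stood at 5.62 to 6.07 in knockout and 5.49 to 5.67 in wild type, with a median difference of 0.25, 3 higher and 1 lower at the unadjusted level. Among them, the replication clamp Pcna differed by 0.41 ± 0.14 (SE), and the 3 probe sets of the mitotic enzyme Top2a disagreed. Its leading one, 1442454_at, which is the lower gene counted here, differed by -0.39 and was never above the floor, while 1454694_a_at differed by 0.65 and was above the floor in KO-94 alone.

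**Figure D4:**
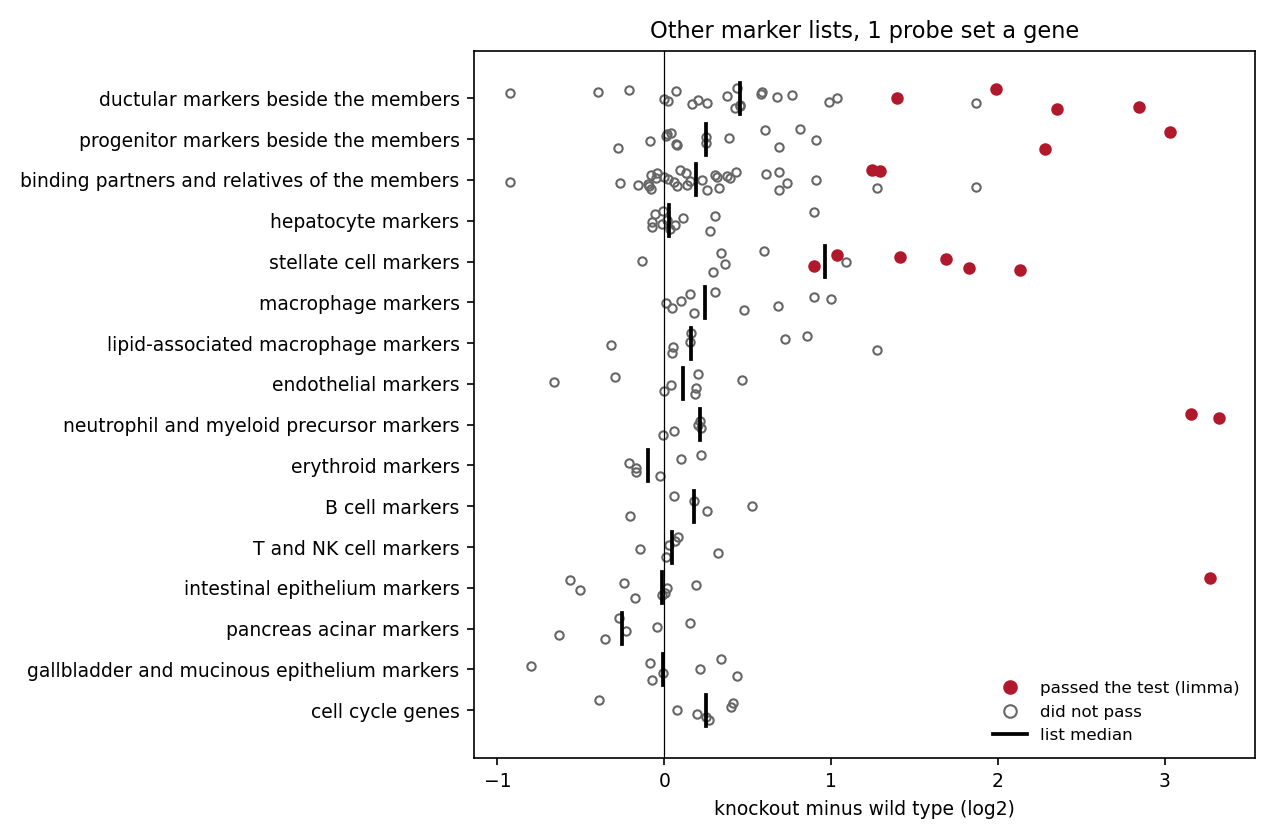
Knockout minus wild type on the log2 scale (horizontal axis) for each gene of the 16 lists, 1 probe set a gene. Filled red points passed the limma test, open points did not, and black bars are list medians. Calls lie in the ductular, progenitor, partner, stellate, neutrophil and intestinal lists, and 0 genes of the other 10 lists passed.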

How the data were processed

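Per the series' design text, expression was quantified by the authors with robust multi-array analysis (RMA) in Partek software, of which no version is recorded in the sources used here. The deposited values are on a log2 scale, which the range 2.20 to 14.9 fits, and they are relative between arrays. Of 45101 rows, 64 were control probe sets. Among the other 45037, the platform annotation gives 1 symbol to 34945, several to 932 and lists no entry for 9160. The number of arrays limits the precision.

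The genotypes were compared by limma 3.58.1 under R 4.3.3 (lmFit, then eBayes; a two-sided test over all 7 arrays with no covariate), adjusted by Benjamini-Hochberg over the 45037 probe sets at a threshold of 0.05. The code was tested on simulated data. Nothing in the labels gives a batch or pairs the animals. The members and the 16 gene lists (178 of 194 entries measured) were chosen with earlier results of these data known, and so was the floor. Named list genes are up to 4 called genes of each list by smallest p, or the 2 with the smallest p where none was called, plus Alb and the 5 genes most alike. Cldn7, Krt18, Krt8, Krt7, Sox9, Cftr, Tnfrsf12a, Dlk1, St14, Spint2, Hgfac, Prom2, Elf5, Ehf, Mpo, Elane, Camp and Cdx1 were added to these with their values already seen. So were Onecut1, Onecut2, Slc4a2, Itgb4, Ezr, Sctr, Cdx2, Fabp2 and Tff3. Alternatives changed the variance prior, array weights, normalization, the probe sets tested, the threshold, the floor and the measure of likeness, or left out each array. Sequences were read with Python 3.11.15 and pandas 2.3.3, and figures drawn with matplotlib 3.10.9.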

Additional observations from a re-analysis of the deposited data

Results flagged for a closer look

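Of 50 probe sets checked, 2 had a knockout liver far from the other 3, and about 1 in 20 would by chance. For probe set 1424649_a_at of Tspan8, KO-03 lay below the others, and its gap to the nearest was 0.840 of the whole knockout range. For Cela1, an elastase, KO-94 lay below the others with a gap of 0.839 of the range, the values being 9.80, 9.70, 9.83 and 8.99 in the 4 knockout livers.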

How the results depend on the processing

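The differences of all 14 probe sets kept their direction in the alternatives run. The 9 probe sets called were 4 at an adjusted p under 0.01 and 3 to 9 when 1 array was left out; the 7 genes were 3 and 2 to 7. The 4 ductular genes called were 7 with array weights, 1 at 0.01 and 1 to 6 without 1 array, and the 2 progenitor genes were 2 to 5 without 1 array. The 2 partners that rose were 1 with a robust prior, 1 after a second quantile normalization, 1 without ambiguous probe sets, 6 with array weights, 4 among probe sets with a genotype mean of at least 6, 4 with 1 probe set a gene, 0 at 0.01 and 0 to 6 without 1 array. Partners that fell numbered 0, but 1 with array weights, 1 with a genotype mean of at least 6, 1 with 1 probe set a gene and 0 to 1 without 1 array. Of the 5 genes most alike, 0 remained by Spearman rho, where 49 genes tied at a rho of 1, 1 of the 5 among them, so that the first 5 are set by the order of ties, 2 when all member probe sets above the floor were used and 0 to 2 without 1 array. The cause was not tested. With array weights, 1 hepatocyte and 2 macrophage markers were also called. With the second brightest control as the floor, the bounds became 2.84 for Tspan8 and 1.33 for 1437502_x_at of Cd24a, while Prom1 and Spint1 lay above it on all arrays, with measured differences of 2.48 and 0.89. Over all probe sets, 582 were called higher, against 1177 with array weights, 1112 without KO-03 and 172 without WT-103. No paired analysis was possible because the replicate numbers in the titles do not recur between genotypes. Signal near the floor limits the differences of 5 of the 7 genes to bounds.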
